A study of Mus musculus with 3 samples.

Results

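The integrins and laminins are the adhesion receptors of animal cells and the matrix proteins that several of them bind. All genes with the symbols of integrin alpha chains, integrin beta chains or laminin alpha, beta and gamma chains were taken, which gave 37 of the 32285 measured genes: 18 integrin alpha chains, 8 integrin beta chains and 11 laminin chains. The rule uses names alone, but the family was chosen with earlier results of these data known. The data were single-cell RNA counts from mouse brainstem, in 3 libraries from 3' droplet sequencing. The tumour 1 and tumour 2 libraries came from brainstem injected with 100000 cells of DIPG4423, a single murine diffuse midline glioma line, in B6(Cg)-Tyrc-2J/J mice that were 6 weeks old before implantation. The brainstem was taken 3 weeks later, with no treatment. The normal library came from untreated brainstem without a graft, and the same protocol text is given for it. All 3 were perfused with saline, homogenised, depleted of myelin with beads and cleared of red cells, and they carry only mouse-level names, so each is taken as 1 sample: 2 tumour libraries and 1 normal library.

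An integrin is a pair of 1 alpha and 1 beta chain that spans the cell membrane, links matrix or a partner cell to the actin cytoskeleton through talin and kindlin, and signals in both directions. A laminin is a trimer of an alpha, a beta and a gamma chain, and laminins together with type IV collagen, nidogen and perlecan form the basement membrane around blood vessels and below the outer border of the brain. In the brain, the beta 2 integrins belong to white blood cells and microglia, alpha v integrins bind matrix proteins with an Arg-Gly-Asp motif and release active TGF-beta, and alpha 6 integrins bind vascular laminin.

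After filtering, 10550, 9371 and 3068 cells remained in tumour 1, tumour 2 and normal, with medians of 8784, 11284 and 2394 UMIs (unique molecular identifiers, 1 per captured RNA molecule) per cell. The 37 genes took 0.174%, 0.212% and 0.163% of all UMIs. No more than 37 cell barcodes were shared by any pair of libraries. Cells were clustered without these 37 genes and each cluster was named by marker genes, so every class below is "like" its name. The glial progenitor class, led by Pou3f1, Olig1 and Lhfpl3, held 4375 and 2090 cells of the tumour libraries and 0 of the normal library. The normal library differed from the tumour pair in other ways that touch the comparisons: it was the shallowest, 26.3% of its barcodes were over the mitochondrial limit of 15% against 9.71% and 9.57%, it held 244 granulocyte precursor and 227 B cells, and its neutrophils lay mostly in other clusters. Myelinating cells were few, with 10, 8 and 84 oligodendrocytes.

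Levels are the UMIs of a gene per 1000000 UMIs of the class in that library (CPM). A 3' library yields 1 tag per molecule whatever the transcript's length, so levels were not divided by length, and the order of genes also carries how well each is captured. Unless other samples are named, 3 values in a row stand for tumour 1, tumour 2 and normal. Tests compared the 2 tumour libraries with the 1 normal library by edgeR's quasi-likelihood test on UMIs summed per library and class. Only the tumour pair gives a residual degree of freedom, so the fit takes the normal library to be as variable as the tumour libraries. The p-values are adjusted by Benjamini-Hochberg over all genes of the fit. An exact permutation test over these samples could not go below 1 in 3. The log2 changes follow edgeR's TMM scaling, which is why they can depart from the plain ratio of the CPM values.

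Each class carried its own set of chains. The most abundant chain in glial progenitors was Itgb1, the beta 1 chain shared by the receptors for laminin, collagen and fibronectin, at 679 CPM in tumour 1 and 712 CPM in tumour 2. Itgav, the alpha v chain, followed at 538 and 445 CPM, and no other named class reached a higher mean level of it. Itga1, the alpha chain of a collagen receptor, stood at 148 and 160 CPM. Besides these, 4 chains passed 10 CPM in glial progenitors: Itgb8, a beta partner of alpha v that presents latent TGF-beta, at 68.8 and 60.8 CPM, Itga9 at 40.2 and 44.3 CPM, and the laminin chains Lama4 and Lamc1. The other 30 chains stayed below 10 CPM on average.

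The laminin chains of the glial progenitors were an alpha and a gamma chain with almost no beta chain. Lama4, the alpha chain of the laminin found in vessel walls, was at 61.9 and 97.0 CPM, and Lamc1, the gamma chain of most laminins, at 57.9 and 58.8 CPM. Against these, the beta chains Lamb1, Lamb2 and Lamb3 were at 1.31 and 2.69 CPM, 0.794 and 0.719 CPM, and 0.522 and 0.505 CPM. The other alpha chains were low. Lama1 and Lama5 were at 6.04 and 4.77 CPM and at 4.02 and 4.32 CPM, and Lama2 and Lama3 stayed below 1 CPM. Of the alpha v partners, Itgb8 was far above Itgb5, at 4.00 and 8.999 CPM, and Itgb3, at 1.11 and 2.22 CPM.

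Among the 5 clusters of glial progenitors with 20 or more cells in both tumours, the 7 chains above 10 CPM each stayed within a ratio of 1.59. Itgb1 ranged from 620 CPM in cluster 13 to 752 CPM in cluster 11, a ratio of 1.21. Itgav ranged from 390 to 578 CPM, a ratio of 1.48, and Lama4 from 64.2 to 89.6 CPM, a ratio of 1.40. Some chains with lower levels varied more across these clusters. Itga2 ranged from 0.361 CPM in cluster 13 to 12.7 CPM in cluster 11, and Lamb1 from 1.42 to 6.67 CPM in the same clusters. Not all low chains did so, since Itgb2 had a ratio of 1.24. There were 2 smaller clusters with 20 or more cells in tumour 1 alone. The first, of 40 cells led by interferon-induced genes such as Ifit3 and Isg15, had 624 CPM of Itgav. The second, of 38 cells led by the heat-shock genes Hspa1a and Hspa1b, had 157 CPM of Itgav and 67.9 CPM of Itga1, both below the range of the other clusters, while its Itgb1 stood at 714 CPM. No value of the normal library bears on this class.

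**Figure D1:**
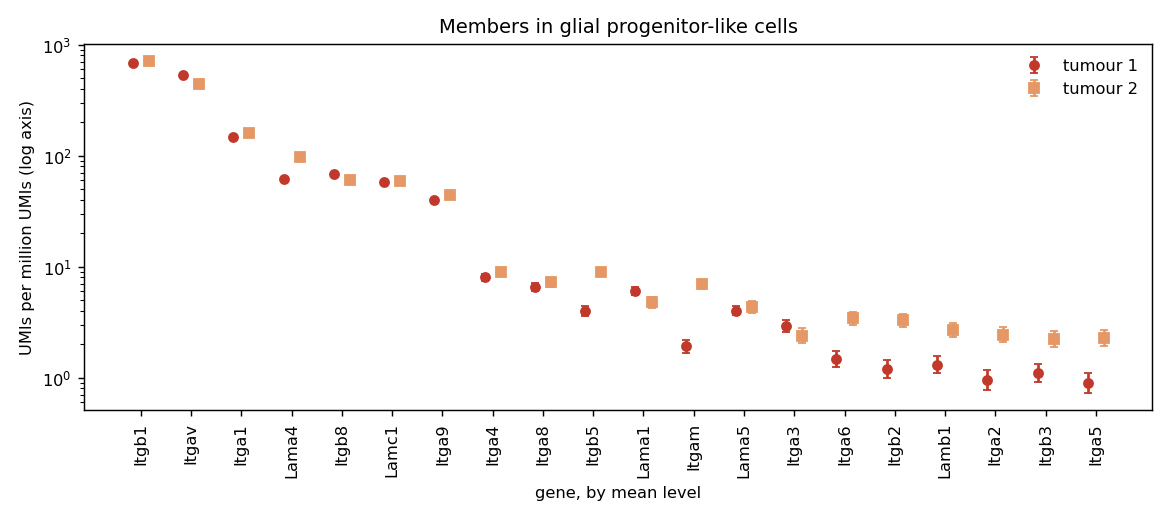
Levels of the 20 most abundant chains in the glial progenitor class, in CPM on a log axis, with 1 point for each tumour library and bars for the 95% counting interval. Itgb1 at 679 and 712 CPM and Itgav at 538 and 445 CPM lead, and Lama4 and Lamc1 lie above 50 CPM while Lamb1 lies below 3 CPM.

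Vessel and stromal cells carried the widest sets, with 20 chains at a mean of 10 CPM or more in endothelial cells, 19 in a mixed stromal class and 19 in fibroblasts, of which 7, 8 and 5 were laminins. In endothelial cells Itgb1 stood at 1306, 1157 and 492 CPM and Itga1 at 792, 735 and 860 CPM. The mixed stromal class, in which mural cell and fibroblast markers both scored and which held 67 and 152 tumour cells and 12 normal cells, had the highest mean level of 9 chains. Its Itgb1 was at 1429 and 1355 CPM in tumour 1 and tumour 2, its Itga1 at 838 and 858 CPM, its Lamb1 at 497 and 469 CPM and its Lamc1 at 380 and 394 CPM. Lama2, the alpha chain of muscle and pial laminin, was at 247 and 234 CPM there, Lama4 at 242 and 282 CPM and Lamc3 at 65.0 and 95.6 CPM. Itga8, an Arg-Gly-Asp receptor chain of contractile cells, was at 62.9 and 56.9 CPM.

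In fibroblasts, with 30 cells in tumour 2 and 40 in normal, Lamb2 was at 189 and 230 CPM and Itga10, the alpha chain of a collagen receptor known from cartilage, at 206 and 147 CPM. Both were the highest mean levels of those chains in any class. In astrocytes Itgb8 led at 876, 582 and 680 CPM, followed by Itga6 at 232, 254 and 347 CPM and Itgav at 211, 228 and 191 CPM. Neurons had the lowest levels, and only Itgb1, at 74.3, 63.5 and 33.1 CPM, averaged over 50 CPM. Choroid plexus cells had Itgb8 at 137, 138 and 220 CPM. Itgb4, the partner of alpha 6 in hemidesmosomes, reached 86.4 CPM in the 84 normal oligodendrocytes and 4.20 and 24.5 CPM in fibroblasts.

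White blood cells and microglia carried the beta 2 family. Itgam, the alpha chain of the complement receptor CR3, had its highest mean level in microglia, at 584, 846 and 749 CPM, but neutrophils, at 654, 595 and 854 CPM, lay above microglia in tumour 1 and normal. Itgb2, its beta partner, had its highest mean level in neutrophils at 293, 314 and 769 CPM. Microglia also led in Itgb5, a beta partner of alpha v, at 433, 657 and 654 CPM. Itga4, whose pairs bind VCAM-1 and fibronectin, was at 293, 411 and 368 CPM in B cells and at 384, 382 and 522 CPM in T or NK cells. It was low in microglia, at 10.4, 7.28 and 7.62 CPM, and not limited to white blood cells, since endothelial cells had 214, 289 and 122 CPM. Dendritic cells, analysed in the tumour libraries alone, had Itgae, the mucosal E-cadherin receptor chain, at 426 and 346 CPM and Itgax, which encodes CD11c, at 224 and 257 CPM.

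**Figure D2:**
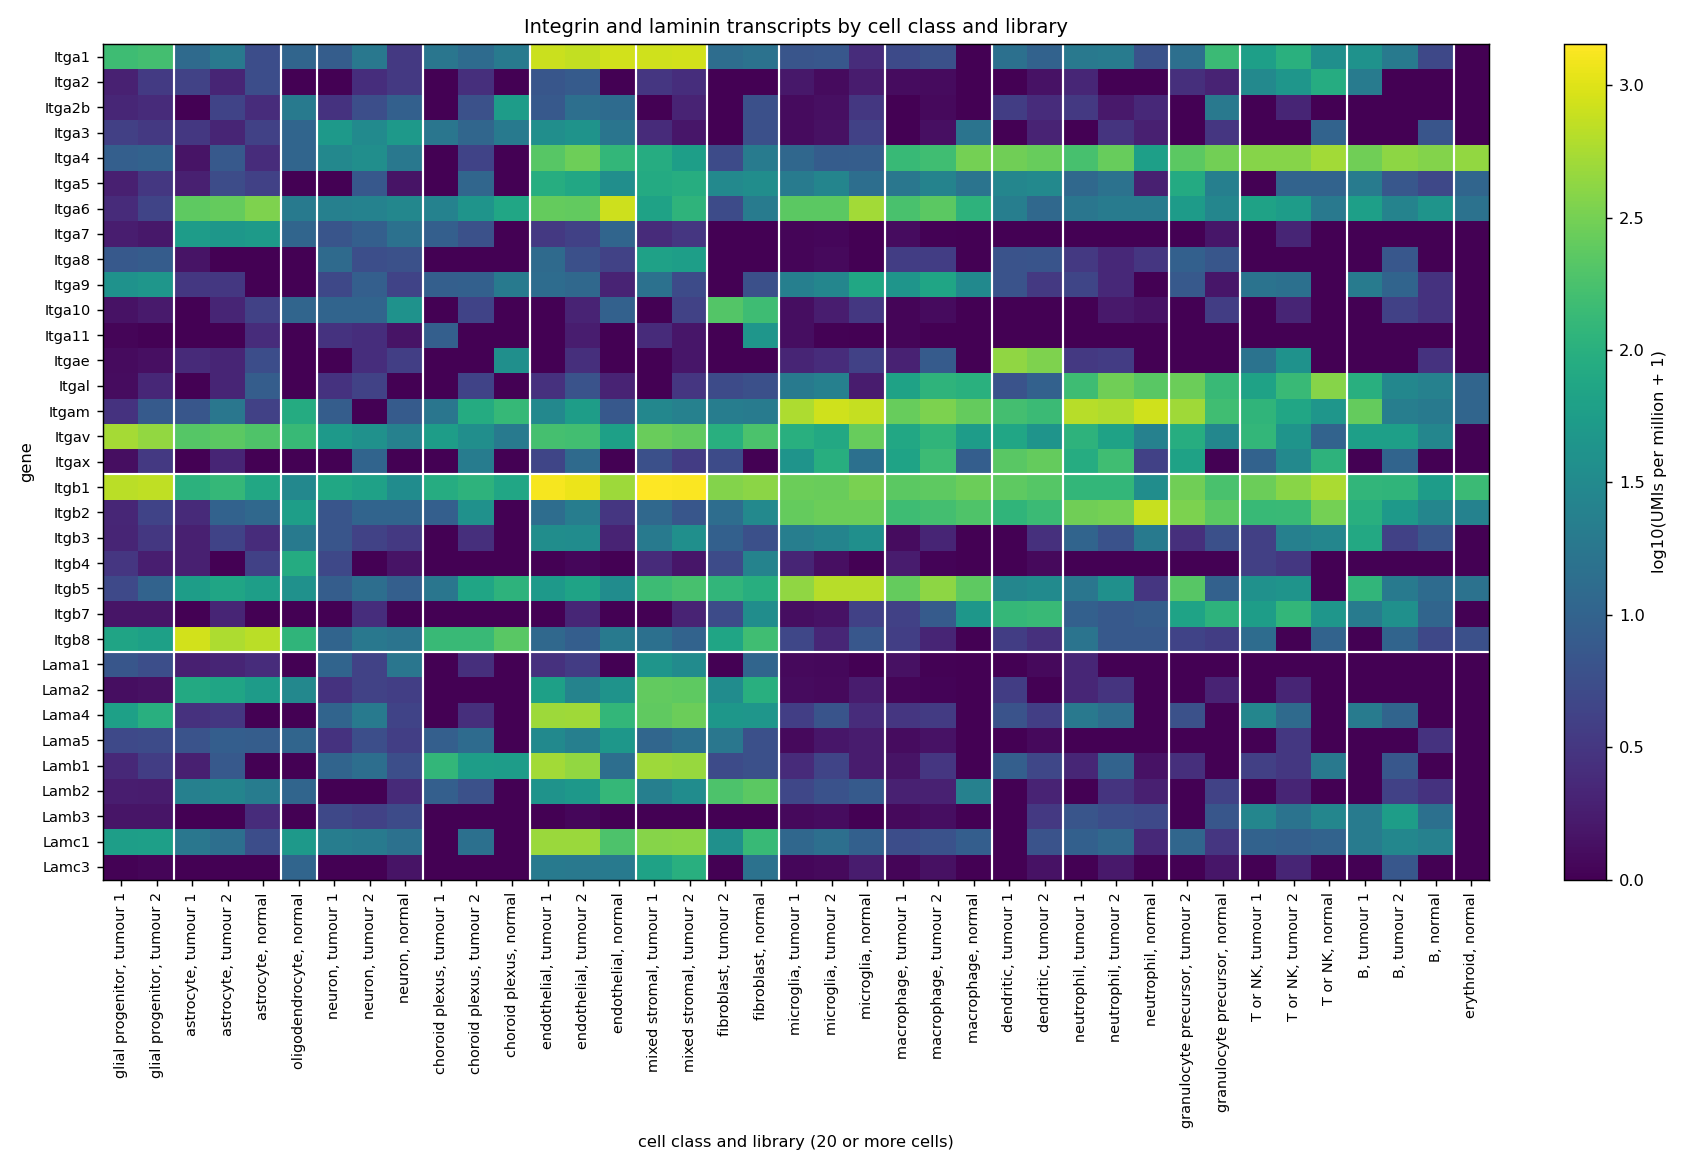
Level of the chains that averaged 10 CPM or more in some class (rows), in each class and library with at least 20 cells (columns), as a colour scale of log10(CPM + 1). Laminin chains stand out in the endothelial, mixed stromal and fibroblast columns, Itgb2 and its alpha partners in the white blood cell and microglia columns, and Itgav is brightest in glial progenitors.

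Between tumour and normal brainstem, 20 of the 32 chains that could be tested passed in at least 1 of 9 classes, while 41.1% of all genes tested passed in at least 1. The other 12 tested chains passed in none, and 5 chains were tested in no class. There were 37 class-level calls in 6 classes. By these calls 8 chains rose in some classes and fell in others, namely Itga6, Itga9, Itgal, Itgam, Itgav, Itgax, Itgb2 and Itgb3. The share of all genes called in both directions was not counted. Several of the calls behind these 8 did not pass in the single-cluster alternatives below. The endothelial class had the most calls.

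In endothelial cells 26 chains could be tested, 15 rose and 2 fell, while 33.5% of all genes passed, 20% higher and 13.5% lower. The median log2 change was 1.48 over these 26 chains and 0.06 over all 11509 genes tested. The 11 chains not tested, among them Itgb4, Itgal and Lama1, had too few UMIs. Because the low-count filter keeps a chain that is high in only 1 group, the count describes the tested chains alone.

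The largest well-counted difference was in Lamb1, the beta 1 laminin chain. Lamb1 stood at 522 CPM in tumour 1, 437 CPM in tumour 2 and 12.8 CPM in normal, the last from 12 UMIs. Both tumour libraries lay far above the normal one, with a log2 change of 5.48 (SE 0.38, n = 2 and 1, edgeR adjusted p = 2.1e-06). The other chains of the same vascular trimer rose by less. Lama4 was at 488, 505 and 122 CPM, a log2 change of 2.28 (SE 0.27, edgeR adjusted p = 4.4e-05), and Lamc1 at 481, 484 and 188 CPM, a log2 change of 1.62 (SE 0.26, edgeR adjusted p = 0.00039). In 3' UMIs the 3 chains lay between 437 and 522 CPM in tumour endothelium, and between 12.8 and 188 CPM in normal endothelium, with Lamb1 lowest.

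Lamb2, the alternative beta chain, went the opposite way. It was at 40.5, 46.7 and 126 CPM, below normal in both tumour libraries, with a log2 change of -1.26 (SE 0.26, edgeR adjusted p = 0.0026). Lama5, the alpha chain of mature vessel laminin, was at 30.3, 21.8 and 46.0 CPM and did not pass (log2 change -0.61, edgeR adjusted p = 0.20). The summed level of a 9-gene mural cell marker list in the endothelial class was 2050, 2646 and 5929 CPM, with all 9 detected in each library, and its part in the Lamb2 difference was not tested.

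The start regions of the 2 beta chain genes are shown because these chains moved in opposite directions. Each runs from 250 bases before to 50 bases after the annotated start, from RefSeq on GRCm38.p6, plus strand. Capitals mark any match to 4 short motifs on either strand: TGANTCA (AP-1 type), GGGCGG (GC box), ACGTG (hypoxia core) and GAGGAA (PU.1 type). Lamb1 lies at chr12:31265043-31265342 and Lamb2 at chr9:108479612-108479911.
Lamb1: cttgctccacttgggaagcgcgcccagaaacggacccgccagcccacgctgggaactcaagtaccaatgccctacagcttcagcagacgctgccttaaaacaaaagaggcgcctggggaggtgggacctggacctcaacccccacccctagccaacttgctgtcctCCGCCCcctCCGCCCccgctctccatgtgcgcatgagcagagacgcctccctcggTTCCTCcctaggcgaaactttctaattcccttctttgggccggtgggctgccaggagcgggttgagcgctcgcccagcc
Lamb2: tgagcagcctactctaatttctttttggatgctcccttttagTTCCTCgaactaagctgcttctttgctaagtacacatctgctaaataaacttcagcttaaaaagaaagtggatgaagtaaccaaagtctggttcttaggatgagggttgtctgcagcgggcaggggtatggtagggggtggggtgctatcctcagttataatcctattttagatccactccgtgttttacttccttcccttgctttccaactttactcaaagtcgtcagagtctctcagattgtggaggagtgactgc
The Lamb1 window holds 2 GC boxes, the first 84 bases before the start, and 1 GAGGAA match. The Lamb2 window holds 1 GAGGAA match and no match to the other 3 motifs. Over all 32851 promoters of the same length, 35.7% hold a GC box, 28.3% GAGGAA, 19.6% ACGTG and 7.81% TGANTCA.

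Among the endothelial receptors, the laminin receptor chain Itga6 fell, and Itgb1, Itgb3, Itgav, Itga3, Itga4 and Itga5 were among those that rose. Itga6 was at 253, 248 and 827 CPM, a log2 change of -1.46 (SE 0.22, edgeR adjusted p = 0.00029). Itga1, by contrast, was at 792, 735 and 860 CPM and did not pass (log2 change 0.09, SE 0.24, edgeR adjusted p = 0.80). Itga3, another laminin receptor chain, was low and higher in tumour, at 35.7, 40.2 and 16.04 CPM, a log2 change of 1.51 (SE 0.40, edgeR adjusted p = 0.010).

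Itgb3, the beta chain of the vitronectin receptor of growing vessels, was at 34.5, 32.9 and 1.07 CPM. The normal value rests on 1 UMI, so the ratio of 31.0 has a 95% counting interval of 5.53 to 1229, and edgeR's adjusted p was 0.00013. Its partner Itgav was at 165, 156 and 61.0 CPM, a log2 change of 1.65 (SE 0.28, edgeR adjusted p = 0.00056). Itga5, the alpha chain of the main fibronectin receptor, was at 92.2, 76.9 and 35.3 CPM (log2 change 1.51, SE 0.32, edgeR adjusted p = 0.0028). For Itgb1, with 1306, 1157 and 492 CPM, the log2 change was 1.58 (SE 0.26, edgeR adjusted p = 0.00048), and for Itga4, with 214, 289 and 122 CPM, it was 1.31 (SE 0.28, edgeR adjusted p = 0.0030). In all of these both tumour values lay above the normal one. The summed 8-gene glial progenitor list in the endothelial class was 537, 372 and 74.9 CPM, with 8, 8 and 5 of the 8 detected and Olig2, Sox10 and Lhfpl3 at 0 in normal, and its part in the Itgav and Itgb1 results was not tested.

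Some endothelial calls rest on few UMIs. Itga9, a receptor chain for tenascin and osteopontin, was at 11.9, 10.7 and 1.07 CPM, with 1 normal UMI and a ratio of 10.2 (95% counting interval 1.79 to 407). Itga2, a collagen receptor chain, was at 5.95, 7.05 and 0 CPM, which makes tumour at least 2.13-fold higher against a floor of 3 UMIs in the normal class.

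A further 4 endothelial calls were chains with their highest mean levels in white blood cells or microglia. Itgam was at 28.6, 56.4 and 6.42 CPM, Itgb2 at 12.49, 20.8 and 2.14 CPM, Itgax at 3.57, 11.5 and 0 CPM and Itgb5 at 50.6, 67.0 and 33.2 CPM. Itgb5 was not limited to those cells, with 146 and 172 CPM in the mixed stromal class of tumour 1 and tumour 2. For Itgb2 the normal value is 2 UMIs (ratio 9.01, 95% counting interval 2.46 to 75.0), and Itgax was at least 3.14-fold higher in tumour. Beside them, the summed level of a 7-gene microglia marker list in the endothelial class was 228, 552 and 167 CPM, with all 7 detected in each library. The 4 chains and the list were highest in tumour 2.

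**Figure D3:**
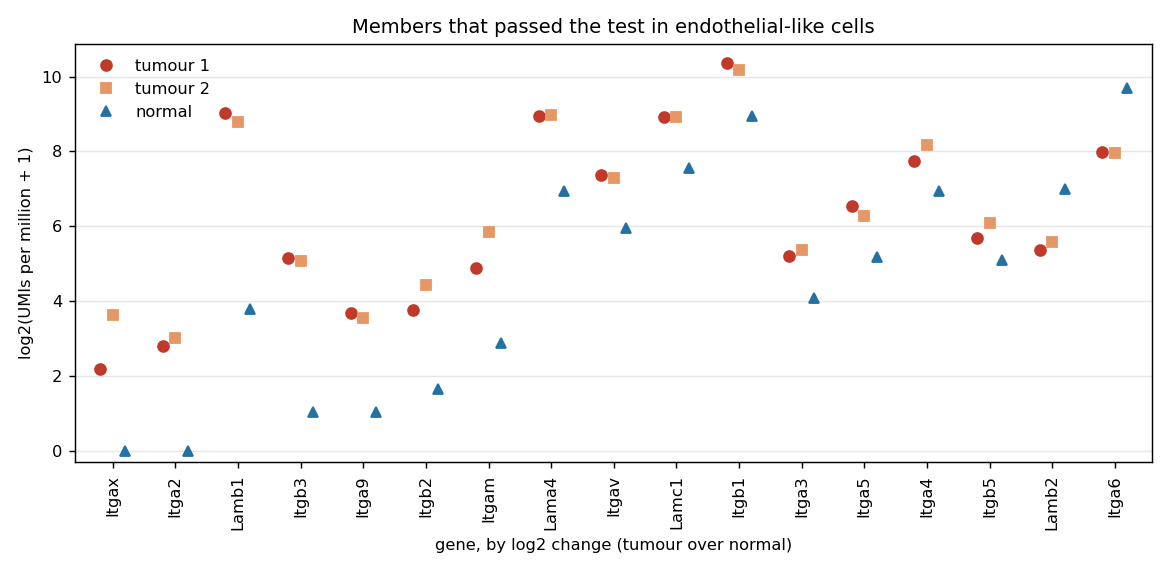
Levels of the 17 called chains in endothelial cells, as log2(CPM + 1), with 1 point per library and the chains in order of their log2 change. The tumour points lie above the normal point for 15 chains and below it for Itga6 and Lamb2; Lamb1 is at 522 and 437 CPM against 12.8 CPM.

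The endothelial class joined 2 clusters that the libraries filled unequally. Cluster 23 held 15, 69 and 144 cells. Cluster 24, led by genes such as Apln, Angpt2 and Esm1 that mark sprouting vessels, held 59, 148 and 0 cells. In tumour 2, the only tumour library with 20 or more cells of both, the chains split by cluster. Lamb1 was at 14.9 CPM in cluster 23 and 521 CPM in cluster 24, Lama4 at 60.4 and 593 CPM, and Itgb1 at 436 and 1301 CPM. Normal cluster 23 had 12.8 CPM of Lamb1 and 492 CPM of Itgb1, near cluster 23 of tumour 2, but 122 CPM of Lama4. Lamc1 and Itga1 were also apart in cluster 23, at 79.2 and 490 CPM in tumour 2 and 188 and 860 CPM in normal. These 2 clusters come from 1 library and no test was made between them.

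Itga6 did not follow that split in full. It was at 827 CPM in normal cluster 23, 414 CPM in tumour 2 cluster 23 and 215 CPM in tumour 2 cluster 24. Itgam, Itgb2 and Itgb5 were at 272, 92.6 and 250 CPM in tumour 2 cluster 23, against 13.3, 6.42 and 30.4 CPM in its cluster 24. In normal cluster 23 these chains were at 6.42, 2.14 and 33.2 CPM. Lama4, Lamc1, Itga1 and Itga6 were lower in cluster 23 of tumour 2 than of normal. The part of microglial RNA in those lower values was not tested. When tumour cluster 24 was set against normal cluster 23, an alternative added after the data were seen, 13 of 23 tested chains passed, with 36.9% of all genes. Lamb1 then had a log2 change of 5.74, while Itgam (2.04, 13.3 and 6.42 CPM, log2 change 0.78, edgeR adjusted p = 0.53) and Itgb5 (34.0, 30.4 and 33.2 CPM, log2 change 0.24, edgeR adjusted p = 0.63) did not pass. The class-level endothelial values therefore mix a cluster absent from normal with one present in all libraries.

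**Figure D4:**
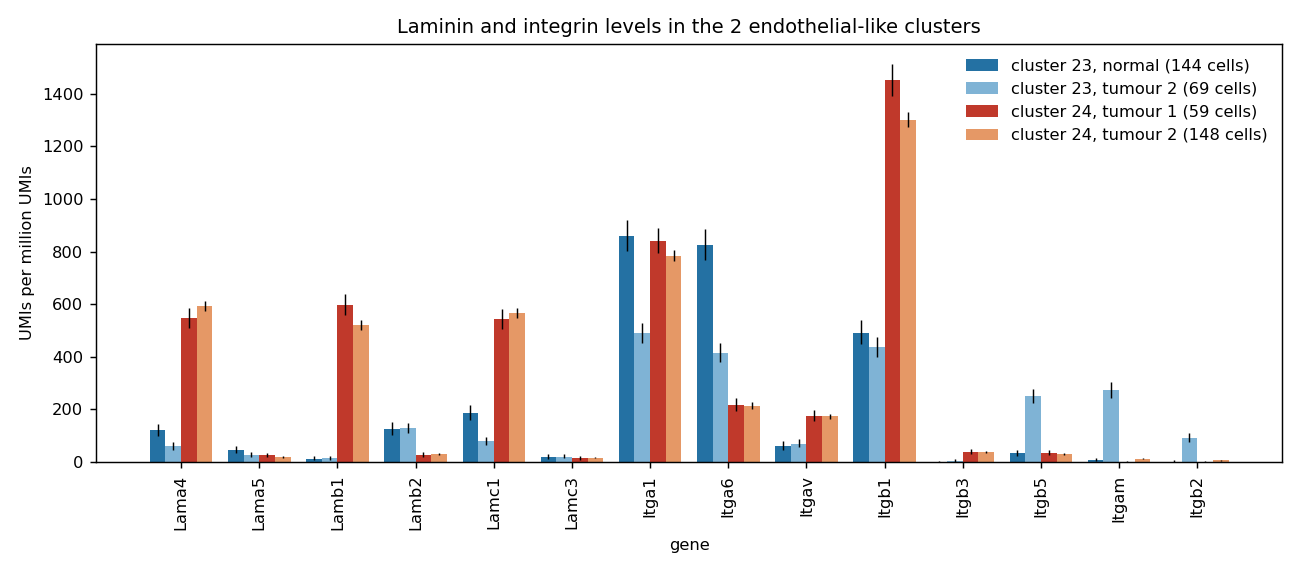
Levels in endothelial clusters 23 and 24 by library, in CPM, for 14 chains, with bars for the 95% counting interval; cluster 23 of tumour 1, with 15 cells, is not drawn. Lamb1 is at 12.8 and 14.9 CPM in cluster 23 and above 500 CPM in cluster 24, whereas Itgam is highest in cluster 23 of tumour 2 at 272 CPM.

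The basement membrane partners of laminin rose with it in endothelial cells, 7 of 10 higher and 2 lower, where 20% of all genes were higher and 13.5% lower, with a median log2 change of 2.24 against 0.06 over all genes. Col4a1, a type IV collagen chain, was at 4279, 3116 and 536 CPM (log2 change 3.05, edgeR adjusted p = 1.8e-05), and the nidogens Nid1 and Nid2 had log2 changes of 2.08 and 3.30. Col18a1 and Hspg2, which encode the core proteins of 2 heparan sulfate proteoglycans, had log2 changes of 5.46 and 2.40. The other proteoglycan of the list, Agrn, was lower with a log2 change of -0.89, and Bcam, a receptor for the laminin alpha 5 chain, lower with -1.29. The partner lists, like the 37 genes, were written with earlier results of these data known.

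Of the 11 integrin ligands tested in endothelial cells, 7 rose and 0 fell, with a median log2 change of 1.52. The shares of all genes beside this and the next counts are again 20% higher and 13.5% lower, so 2 lower of 18 and 1 lower of 8 are near the background. Among the 7 ligands, Fbn1 and Tnc had 0 normal UMIs, so the median describes the tested ligands alone. Spp1, which encodes osteopontin, was at 281, 163 and 1.07 CPM, with 1 normal UMI and a ratio of 172 (counting interval 30.9 to 6815). In microglia of tumour 1 and tumour 2 Spp1 was at 712 and 677 CPM, and the part of microglial RNA in the endothelial result was not tested. Fn1, which encodes fibronectin, was at 1778, 1675 and 929 CPM (log2 change 1.15, edgeR adjusted p = 0.0033). Of 18 activators and adaptors 8 rose, among them talin 1 (Tln1, 372, 357 and 129 CPM, log2 change 1.75) and the kindlin Fermt2 (log2 change 0.92), and 2 fell, Lims2 (-1.91) and Tns1 (-0.9995). Of 8 genes of latent TGF-beta handling 4 rose, including Tgfb1 at 234, 222 and 48.1 CPM (log2 change 2.50), and the receptor gene Tgfbr2 fell (log2 change -0.94).

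In microglia 26 chains were tested, 4 rose and 2 fell, while 23.3% of all genes passed, 15.4% higher and 7.86% lower. The median log2 change was 0.14 over the chains and 0.11 over all genes. Itgal, the alpha chain of the LFA-1 receptor for ICAM-1, was at 19.1, 22.5 and 0.762 CPM, with 1 normal UMI, a ratio of 27.9 (95% counting interval 5.00 to 1105) and an edgeR adjusted p of 0.00044. The summed level of an 8-gene T or NK marker list in the class was 0.851, 2.81 and 1.52 CPM, with 4, 6 and 1 of the 8 detected and Cd3e, Cd3d and Trac at 0 in tumour 1. Macrophages carried Itgal as well. Their cluster 3, with 561, 1325 and 28 cells, had it at 62.3, 116 and 150 CPM. The part of either cell type in the Itgal result was not tested.

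Itgax, a gene raised in microglia of diseased or developing brain, was at 41.4, 95.3 and 13.7 CPM, a log2 change of 2.92 (SE 0.60, edgeR adjusted p = 0.0047). Itgav went down, with 96.4, 80.3 and 260 CPM (log2 change -0.997, edgeR adjusted p = 0.0072), and so did Itga9, with 21.9, 26.8 and 75.4 CPM (log2 change -1.05, edgeR adjusted p = 0.013). Low chains that rose were Itga1, at 5.86, 6.19 and 1.52 CPM from 2 normal UMIs (ratio 3.98, 95% counting interval 1.09 to 33.0), and Itga5, at 19.5, 26.4 and 12.9 CPM. Beside them, the summed 8-gene glial progenitor list in microglia was 181, 76.3 and 9.14 CPM, with 8, 8 and 5 of the 8 detected and Pdgfra, Cspg4 and Olig2 at 0 in normal, and its part was not tested. The most abundant chains did not pass: Itgam, Itgb5, Itgb2 (257, 279 and 278 CPM), Itgb1 (277, 268 and 327 CPM) and Itga6 (230, 228 and 518 CPM, log2 change -0.61, edgeR adjusted p = 0.10).

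Microglia, too, were spread over clusters unequally: 683 of the 729 normal cells lay in cluster 1, the cluster led by P2ry12 and Tmem119, which held 1449 and 869 tumour cells. Within cluster 1, an alternative added after the data were seen, 0 of 19 tested chains passed in edgeR and 7 had an unadjusted p under 0.05, with 4.22% of all genes passing. Itgav there was at 165, 146 and 267 CPM (log2 change -0.68, edgeR adjusted p = 0.11) and Itgal at 9.84, 4.01 and 0.825 CPM (log2 change 3.10, edgeR adjusted p = 0.18). With no scaling beyond library size, 5 chains passed in the microglia class, 2 higher and 3 lower, and the median log2 change of all genes moved from 0.11 to -0.45.

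Among partner genes in microglia, 4 of 12 ligands rose, where 15.4% of all genes were higher. Spp1 was at 712, 677 and 64.7 CPM (log2 change 3.99), Fn1 at 227, 62.1 and 7.62 CPM (log2 change 4.76) and Vcam1, which encodes the partner of alpha 4 integrins, at 33.1, 35.3 and 4.57 CPM (log2 change 3.47). Tln1 also rose, at 498, 430 and 197 CPM (log2 change 1.79). Tgfbr1, a receptor gene downstream of the latent TGF-beta that alpha v integrins release, was lower at 505, 545 and 1983 CPM (log2 change -1.35, edgeR adjusted p = 0.0068).

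In neutrophils 17 chains were tested, 5 rose and 3 fell, while 17% of all genes passed, 8.09% higher and 8.87% lower. The median log2 change was 1.21 over the chains and 0.06 over all genes. As in endothelial cells, the low-count filter keeps chains that are high in only 1 group, such as Lama4 here. The median therefore describes the tested chains alone. Itgb2, the beta chain on which all leukocyte beta 2 integrins depend, was at 293, 314 and 769 CPM (log2 change -1.96, SE 0.30, edgeR adjusted p = 0.0012). Itgax rose, from 3.05 CPM in normal to 88.2 and 151 CPM (log2 change 4.66, SE 0.57, edgeR adjusted p = 0.00038). Itgb1 was at 122, 122 and 34.4 CPM (log2 change 1.21, edgeR adjusted p = 0.034). These 3 calls held within cluster 8, the neutrophil cluster with the most tumour cells, but not under every alternative. Itgb2 and Itgax passed with DESeq2 and Itgb1 did not (DESeq2 adjusted p = 0.19). With finer clustering (Leiden resolution 2.0) Itgb2 was the single chain called, Itgb1 did not pass (log2 change 0.84, edgeR adjusted p = 0.38) and Itgax was not tested.

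The start regions of Itgam and Itgax are shown because these neighbouring genes, on chromosome 7 with 11.1 kb between them, encode alpha partners of Itgb2. In the neutrophil class Itgam was called lower and Itgax higher. The Itgam call was lost within cluster 8 (log2 change -0.20, edgeR adjusted p = 0.74) and with library size alone. The windows and the capitals are as for the laminin genes, on the plus strand at chr7:128062390-128062689 for Itgam and chr7:128129300-128129599 for Itgax.
Itgam: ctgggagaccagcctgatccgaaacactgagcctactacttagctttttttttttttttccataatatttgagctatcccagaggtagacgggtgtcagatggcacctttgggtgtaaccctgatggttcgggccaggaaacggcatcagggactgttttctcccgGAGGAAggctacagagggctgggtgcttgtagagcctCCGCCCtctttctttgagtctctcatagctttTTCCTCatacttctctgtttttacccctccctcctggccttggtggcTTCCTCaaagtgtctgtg
Itgax: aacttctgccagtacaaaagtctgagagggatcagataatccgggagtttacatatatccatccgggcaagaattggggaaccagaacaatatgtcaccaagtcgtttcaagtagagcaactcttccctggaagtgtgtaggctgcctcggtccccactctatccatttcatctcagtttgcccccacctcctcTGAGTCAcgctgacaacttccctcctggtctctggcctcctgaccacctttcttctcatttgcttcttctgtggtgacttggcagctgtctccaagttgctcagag
The Itgam window holds 3 GAGGAA matches and 1 GC box. The Itgax window holds 1 TGANTCA match, 56 bases before the start, and no GAGGAA or GC box.

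Itgam fell in the neutrophil class, with 654, 595 and 854 CPM (log2 change -1.08, SE 0.30, edgeR adjusted p = 0.028), and Itgb3 fell, with 9.41, 5.27 and 19.2 CPM (log2 change -2.06). Both calls were lost with library size alone, at log2 changes of -0.45 and -1.44, where 7 of 8 called chains were higher in tumour. Itga4 was at 171, 260 and 59.2 CPM (log2 change 1.24, edgeR adjusted p = 0.037) and Itgb5 at 16.5, 37.5 and 2.18 CPM (log2 change 3.02, edgeR adjusted p = 0.015). The summed 7-gene microglia list in neutrophils was 477, 712 and 121 CPM, all 7 detected in each library, and its part in the Itgb5 and Itgax results was not tested. Lama4 was at 17.7, 12.51 and 0 CPM, so that tumour was at least 10.98-fold higher. Beside it, the summed 8-gene glial progenitor list in neutrophils was 497, 167 and 5.66 CPM, with all 8 detected in the tumour libraries and Cspg4 and Sox10 at 0 in normal. Lama4 in neutrophils was 28.5% and 12.9% of its level in the glial progenitors of the same library, and Itgb1 18.0% and 17.2%. The list was at 10.9% and 4.17%, and its part in the Lama4 and Itgb1 results was not tested.

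Neutrophils of the normal library lay mostly elsewhere. Cluster 8 held 285, 463 and 119 cells, cluster 15 held 33, 25 and 329, and cluster 29 held 4, 6 and 72. Itgam was at 562 CPM in normal cluster 8 and 1131 CPM in normal cluster 15, and Itga4 at 276 and 35.1 CPM. Within cluster 8 alone, added after the data were seen, 4 of 14 tested chains passed, with 13.6% of all genes. Itgb2 (248, 300 and 853 CPM, log2 change -2.07), Itgax (125, 185 and 33.9 CPM, log2 change 1.76) and Itgb1 (133, 138 and 19.4 CPM, log2 change 2.36) kept their direction and passed, and Itgal (179, 342 and 601 CPM, log2 change -1.63, edgeR adjusted p = 0.011) passed there but not in the class. Itga4 turned to a log2 change of -0.47 and did not pass (edgeR adjusted p = 0.43), nor did Itgam (log2 change -0.20, edgeR adjusted p = 0.74).

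**Figure D5:**
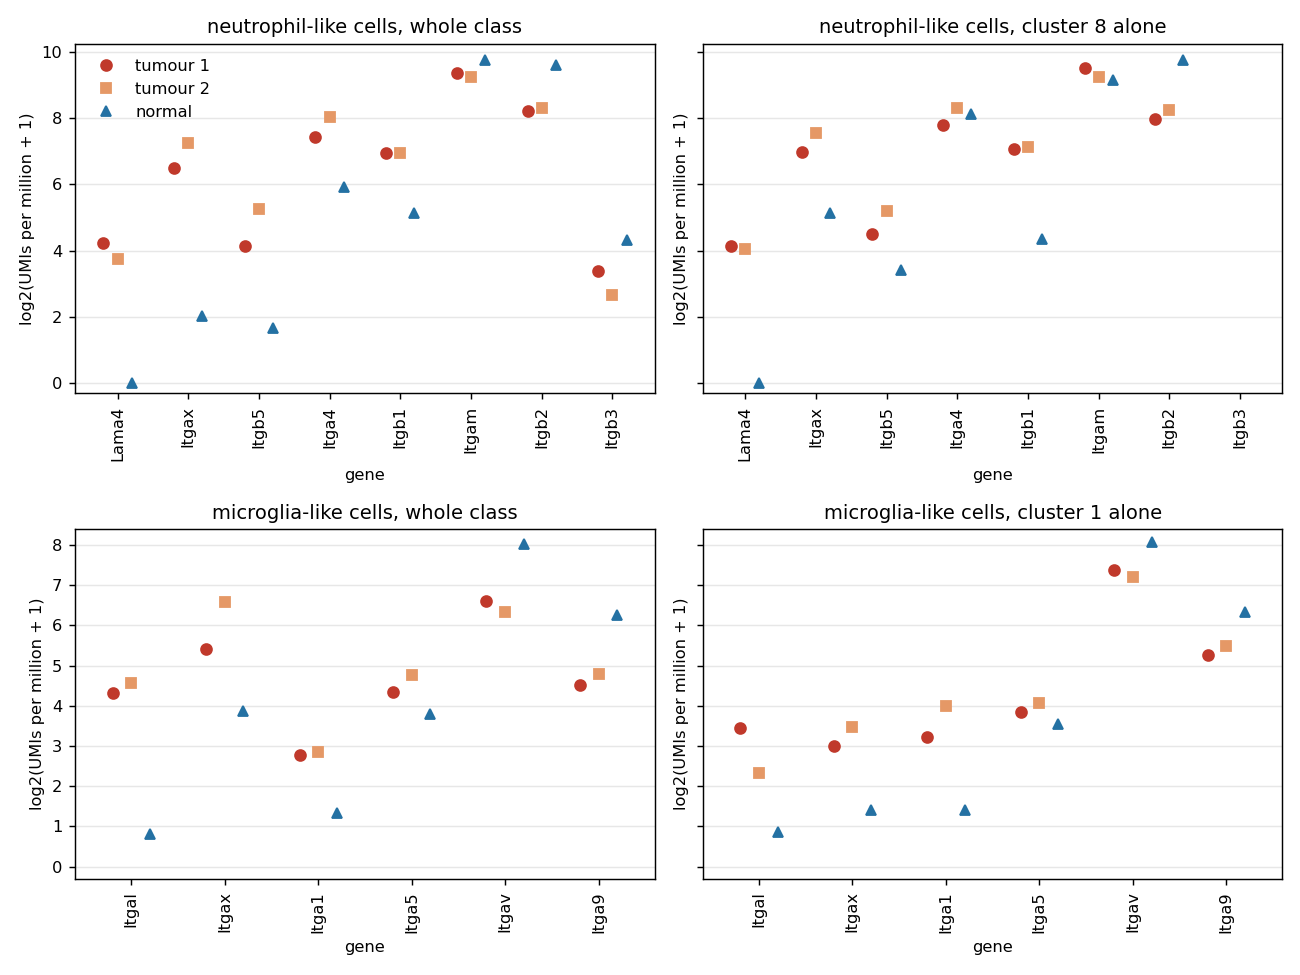
Levels of the chains called in neutrophils (top) and microglia (bottom), as log2(CPM + 1), with 1 point per library, in the whole class (left) and in cluster 8 or cluster 1 alone (right). The normal point of Itga4 in neutrophils moves from 59.2 CPM in the class to 276 CPM in cluster 8, and Itgb3 has no points in cluster 8 because it was not tested there.

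Macrophages gave 2 calls among 21 chains tested, while 6.04% of all genes passed, 3.52% higher and 2.52% lower. Itgax was at 66.0, 143 and 7.72 CPM, with 1 normal UMI and a ratio of 15.4 (95% counting interval 2.76 to 608, edgeR adjusted p = 0.020). Itga6, at 178, 229 and 108 CPM, had a log2 change of 1.50 (edgeR adjusted p = 0.049). The normal class has 32 cells, and both calls were lost under 4 alternatives, among them DESeq2's test. Itgax was the chain called higher in the most classes: endothelial cells, macrophages, microglia and neutrophils. Not all of these calls held within clusters. In tumour 2 endothelial cells Itgax was at 55.7 CPM in cluster 23 and 2.66 CPM in cluster 24, and tumour 1 had 0 UMIs of it in cluster 24. In microglia it did not pass within cluster 1 (log2 change 2.43, edgeR adjusted p = 0.15), while in neutrophils it passed within cluster 8.

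In T or NK cells 13 chains were tested, 0 rose and 3 fell, while 5.56% of all genes passed, 3.19% higher and 2.37% lower. Itgal was at 65.5, 136 and 378 CPM (log2 change -1.71, SE 0.35, edgeR adjusted p = 9e-05), Itgax at 8.93, 29.4 and 108 CPM (log2 change -2.15, edgeR adjusted p = 0.030) and Itgb2 at 134, 137 and 315 CPM (log2 change -1.10). All are chains of the beta 2 family, which T and NK cells use to bind ICAM-1 on target cells. The normal class had 37 cells, and the summed 8-gene neutrophil list in it was 16576 CPM, against 1092 and 45.3 CPM in the tumour libraries; its part in these results was not tested. No call for Itgal or Itgb2 remained with DESeq2.

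Neurons gave 1 call among 11 chains, while 4.14% of all genes passed, 2.81% higher and 1.33% lower: Itga10 fell, at 9.52, 9.52 and 40.1 CPM (log2 change -2.01, edgeR adjusted p = 0.0093). It did not pass with DESeq2. The summed 6-gene fibroblast list in neurons was 15.2, 12.7 and 21.9 CPM, with 4, 4 and 5 of the 6 detected and Lum at 0 in tumour 1 and normal, and its part was not tested. In astrocytes 0 of 11 tested chains passed in edgeR or DESeq2, with 4.88% of all genes passing in edgeR and 2 chains at an unadjusted p under 0.05, Itga6 and Lamc1. In B cells 0 of 10 passed by either tool, with 0% of all genes passing in edgeR and 1 chain, Itgb1, under an unadjusted 0.05. In choroid plexus cells 0 of 5 passed by either tool, with 1.8% of all genes and 0 chains under an unadjusted 0.05.

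Whether a change differed from that in microglia was tested as a class-by-condition term, with the library as a term in the model and, as an alternative, without it. With the term, 6 of 30 chains tested in endothelial cells differed (5.54% of all genes), 5 of 20 in neutrophils (11.2%), 6 of 21 in T or NK cells (6.79%) and 4 of 30 in macrophages (3.82%). In astrocytes 2 of 20 differed (6.18%), in B cells 1 of 18 (6.41%), in neurons 1 of 24 (4.72%) and in choroid plexus cells 0 of 19 (0.148%). Without the term 3 endothelial chains (1.2% of all genes), 3 in neutrophils (5.07%), 1 in T or NK cells (0.664%), 2 in B cells (8.99%) and 1 in neurons (2.68%) differed. In macrophages (0%), astrocytes (0.00762%) and choroid plexus cells (0.0174%) there were 0.

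Summed over all cells, 36 chains could be tested, all but Itgb6, and 6 rose and 2 fell, while 20.7% of all genes passed, 12.6% higher and 8.1% lower. Such sums mix how many cells of a class a library holds with the level per cell, and fewer cells of a type and less RNA per cell cannot be told apart in them. Itgav was at 416, 256 and 71.9 CPM (log2 change 2.76, SE 0.42, edgeR adjusted p = 0.018), and glial progenitors held 91.6% and 78.1% of its tumour UMIs. Microglia held 43.1% of its normal UMIs, so the whole-library rise and the fall within microglia stand side by side. Itgb1 was at 578, 518 and 158 CPM (log2 change 2.34, edgeR adjusted p = 0.017) and Itga9 at 35.8, 38.9 and 10.6 CPM (log2 change 2.38, edgeR adjusted p = 0.016).

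The 3 chains of the vascular laminin trimer all rose in the sums. Lamb1 was at 12.7, 32.2 and 3.18 CPM (log2 change 3.40, edgeR adjusted p = 0.040), and endothelial and mixed stromal cells held 49.3% and 39.5% of its UMIs in tumour 1 and 71.6% and 18.7% in tumour 2. Lama4 was at 54.0, 77.0 and 12.2 CPM (log2 change 2.99, edgeR adjusted p = 0.017). Its UMIs came from glial progenitors for 81.2% and 56.7% in the tumours and from endothelial cells for 85.1% in normal. Lamc1 was at 53.3, 62.1 and 25.8 CPM (log2 change 1.72, edgeR adjusted p = 0.025). Itga10 and Itga2b, the platelet and megakaryocyte chain, fell, at 0.420, 1.10 and 13.7 CPM and at 1.03, 1.63 and 14.6 CPM. With library size alone 16 chains passed, 7 higher and 9 lower, and the median log2 change of all genes moved from 0.14 to -0.41.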

How the data were processed

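Single-cell RNA was counted in 2 tumour libraries and 1 normal library of mouse brainstem. The deposited values are raw UMI counts per gene and cell which the authors made, per the file headers, with Cell Ranger 6.1.2. The submitters' processing notes name mm10 as the build; read depth and other steps are not given in the sources used here.

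Cells with at least 500 UMIs, at least 300 genes and at most 15% mitochondrial UMIs were kept, and doublets were called with Scrublet in scanpy at an expected rate of 8% and removed (3.43%, 2.84% and 1.95% of cells). Kept cells held 140556302, 145250370 and 10993858 UMIs in tumour 1, tumour 2 and normal. Counts were scaled to 10000 per cell and clustered (scanpy 1.11.5, igraph 0.11.9, Leiden resolution 1.0, 2000 variable genes without the integrins and laminins, 30 principal components, 15 neighbours) into 38 clusters, which were named from marker lists; 1128, 587 and 259 cells stayed unnamed. Class sums with at least 20 cells in each library were tested with edgeR 4.0.16 (quasi-likelihood, TMM, filterByExpr, Benjamini-Hochberg over all genes, threshold 0.05) in R 4.3.3; rows of every gene were fitted and the 37 genes reported. In T or NK, choroid plexus and neuron fits edgeR's prior degrees of freedom were infinite, so those p-values rest on the spread pooled over genes. The edgeR fit between tumour and normal was tested on simulated data with known changes, for the whole library, microglia and endothelial cells. In that order it recovered 3%, 2.04% and 1.10% of the 2-fold changes tested. Of the 4-fold changes it recovered 62.9%, 43.3% and 37.4%, with 3 false calls in each. A chain that did not pass is therefore not shown to be unchanged. Nothing states that libraries came from separately handled litters or days, so the p-values reflect only how these libraries vary, which may be technical. Intervals are exact Poisson or binomial at 95% and cover counting error only.

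The genes, marker lists and partner lists were chosen with earlier results of these data known. Values in every library are given for chains called in a class and for the chains with the highest mean level in a class, up to 4 from 50 CPM; partner genes are named where they passed. Alternatives were DESeq2 1.42.0 size factors and test, library size alone, no low-count filter, a stricter cell filter (1000 UMIs, 10% mitochondrial), doublets kept, Leiden resolution 2.0, the 37 genes allowed among the variable genes, each tumour library left out, and no library term when classes were compared; 3 within-cluster comparisons were added after the data were seen. Gene positions came from GENCODE on GRCm38, and start regions from RefSeq on GRCm38.p6, where 23 of the 37 genes had an entry. Of the 37 genes, 9 overlap an exon of a gene on the opposite strand; reads of such pairs are kept apart only where counting used the strand, which the sources used here do not state. A result on 1 of the genes is not reported here.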

Additional observations from a re-analysis of the deposited data

Results flagged for a closer look

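The change between tumour and normal was compared between microglia and each other class by a class-by-condition term with the library as a term, and results are given where the difference had an edgeR adjusted p under 0.05 and the chain was called in microglia or in the other class. The microglia values are shared by all of these comparisons and rest on the same 3 libraries, so they are not independent of each other. Each value is the log2 change in the named class minus that in microglia. The share of all genes that passed was 6.41% for B cells, 6.79% for T or NK cells, 6.18% for astrocytes, 5.54% for endothelial cells, 3.82% for macrophages, 4.72% for neurons and 11.2% for neutrophils.

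Itgav, which fell in microglia, differed in 7 classes. The difference was 2.42 in B cells (edgeR adjusted p = 0.022), 4.36 in T or NK cells (5.4e-05), 1.25 in astrocytes (0.015), 2.70 in endothelial cells (0.0017), 2.50 in macrophages (0.0025), 1.84 in neurons (0.013) and 2.34 in neutrophils (0.0041). Itgav was highest in glial progenitors, a class with 0 normal cells, and their markers were present in these tumour classes. As a percent of its level in the glial progenitors of tumour 1 and tumour 2, Itgav stood at 10.9 and 13.2 in B cells, where the progenitor marker list stood at 5.13 and 10.05. In T or NK cells Itgav was at 22.7 and 9.41 percent and the list at 10.15 and 6.86, in neurons 9.20 and 8.55 with a list of 7.21 and 5.56, and in neutrophils 20.3 and 14.5 with a list of 10.9 and 4.17. Itgav was at 39.1 and 51.1 percent in astrocytes (list 9.26 and 11.8) and at 30.6 and 35.1 percent in endothelial cells (list 11.75 and 9.31). In macrophages it was at 14.2 and 25.85 percent (list 2.395 and 1.165). In microglia it was at 17.9 and 18.0 percent, with the list at 3.95 and 1.91. The part of progenitor RNA in these differences was not tested. Itga9, which also fell in microglia, differed by 4.67 in endothelial cells (0.014) and by 2.62 in macrophages (0.0035).

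Itgal, which rose in microglia from 1 normal UMI, differed by -6.79 in T or NK cells (edgeR adjusted p = 8.8e-14), -4.84 in macrophages (0.0019) and -5.87 in neutrophils (0.0012). It also differed by -9.66 in astrocytes (edgeR adjusted p = 0.00012), a class whose own fit did not test it. Itgax differed by -4.95 in T or NK cells (6.5e-09). Itgb2 differed by -1.34 in T or NK cells (0.011) and by -2.38 in neutrophils (0.0012). In neutrophils Itgam differed by -1.45 (0.033) and Itgb5 by 2.78 (0.0095).

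In endothelial cells Itga3 differed by 4.10 (edgeR adjusted p = 0.046), Itgam by 2.51 (0.024), Itgb1 by 1.33 (0.048) and Itgb3 by 5.26 (0.0063). In macrophages Itga6 differed by 2.22 (0.00020). No group had the 4 samples that a check for single outlying samples needs.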

How the results depend on the processing

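Of the log2 changes of called chains, 374 re-computed values counted as the same and 52 kept the direction but did not pass. A further 26, all with 1 tumour library left out, moved by more than the spread of the tumour pair. The 374 include 36 values without tumour 1 and 28 without tumour 2. Those have no test and only kept their direction and stayed within that spread. The rest of the 374 kept their direction and side of the threshold. Reversed were 2, both Itga4 in neutrophils, at -0.0573 with Leiden resolution 2.0 and -0.47 in cluster 8 alone. Of class levels, 168 values stayed within the spread and 9 moved. Where a count of called chains changed by over 1.5 times, the counts were as follows. In the whole library 8 became 16 with library size alone and 14 with DESeq2. In T or NK cells 3 became 0 with DESeq2, 1 with no low-count filter and 1 with the 37 genes among the variable genes. In endothelial cells 17 became 11 with DESeq2. In macrophages 2 became 0 with DESeq2 size factors, library size alone, DESeq2's test and the stricter cell filter, 1 with resolution 2.0, 1 with the 37 genes among the variable genes, and 5 with no low-count filter. In microglia 6 became 3 with DESeq2 and 0 in cluster 1 alone. In neurons 1 became 0 with DESeq2. In neutrophils 8 became 2 with DESeq2, 1 with resolution 2.0 and 4 in cluster 8 alone. In B cells and in astrocytes 0 became 2 with doublets kept. The number of chains whose change differed from microglia went, without the library term, from 1 to 2 in B cells, 6 to 1 in T or NK cells, 2 to 0 in astrocytes, 6 to 3 in endothelial cells, 4 to 0 in macrophages and 5 to 3 in neutrophils. The cause of these shifts was not tested. DESeq2 gave no adjusted p for 4 called changes. Library size alone moved the median log2 change of all genes to 0.68 in neutrophils and to -0.45 in microglia, and made 7 of 8 and 2 of 5 calls higher in tumour there. The stricter cell filter was not run for B and choroid plexus cells, which fell under 20 cells. Leaving out a tumour library leaves 1 against 1, a value with no test, and the single normal library cannot be left out. The normal depth limits chains at 1 UMI or 0. No paired analysis was possible because the groups share fewer than 2 replicate numbers.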

Other observations

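In the neutrophil class 6 of 8 tested basement membrane genes rose, where 8.09% of all genes were higher, among them Col4a1 at 28.2, 54.0 and 2.18 CPM and Sparc at 200, 165 and 33.5 CPM, beside a summed endothelial marker list of 51.8, 104 and 17.0 CPM in that class, whose part was not tested. Icam1, which encodes a ligand of the beta 2 integrins, was at 51.8, 49.4 and 0.436 CPM there, with 1 normal UMI. The adaptor genes Vcl (log2 change -2.52), Parvg (-2.38) and Lims1 (-2.12) fell.

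In the whole-library sums Tnc, which encodes tenascin C, was at 11.4, 12.5 and 0.273 CPM, and Spp1 at 186, 326 and 22.3 CPM. Thbs1, which encodes thrombospondin 1, was lower at 7.04, 12.7 and 79.8 CPM (log2 change -2.45).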
